A study of Mus musculus with 10 samples.

Results

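The 4 Hox clusters of the mouse genome were examined for peaks of FLAG-tagged Nanog, a transcription factor, and of Sin3a, a co-repressor scaffold, in pre-iPSCs. These are cells arrested partway in reprogramming to pluripotency. Members were the peaks of the 4 deposited peak lists that shared at least 1 base with one of 4 windows of mouse build mm9. HoxA was chr6:52080000-52240000, HoxB chr11:96030000-96250000, HoxC chr15:102730000-102890000 and HoxD chr2:74470000-74620000. Of 110170 peaks in the 4 lists, 41 were members.

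The cells were female, of strain 129/MF1, derived from neural stem cells, and carried an Oct4-GFP-IRES-puro reporter. All were grown in serum and LIF. They had been stably transfected with PiggyBac vectors, in which the CAG promoter drives the transgene, and selected with drugs. The Sin3a line carried Sin3a with the vector labelled EV, the Nanog line FLAG-tagged Nanog with EV, and the Nanog + Sin3a line, called the combined line here, both transgenes. Sin3a was precipitated in the Sin3a and combined lines with an antibody to the protein itself, so endogenous and added Sin3a cannot be told apart. FLAG was precipitated in the Nanog and combined lines, so the FLAG lists do not describe endogenous Nanog, which has no tag. No FLAG precipitation came from cells without tagged Nanog, so peaks of the antibody itself cannot be told apart. Each of these 4 groups had 2 replicates and is represented by 1 peak list, so the spread between replicates is unknown and no test was made. The identity of the cells was not checked, since peak lists give no expression.

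Hox genes encode homeodomain transcription factors that give cells their position along the body axis. Within a cluster their order along the chromosome follows the order of the body regions they pattern, with low-numbered members acting towards the head and high-numbered members towards the tail and the limb ends. In pluripotent cells the clusters are known to be kept silent by Polycomb proteins. Nanog is itself a homeodomain protein and belongs to the core of the pluripotency network. Sin3a holds histone deacetylases in a co-repressor complex.

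The clusters were listed with 38 Hox genes: 10 in HoxA, 10 in HoxB, 9 in HoxC and 9 in HoxD. The gene table used here is of build GRCm38.p6, so it gave the order of the genes, and no peak was assigned to a gene. In HoxA the order ran from Hoxa2 at the low coordinates to Hoxa13 at the high ones. In HoxB it ran from Hoxb13 to Hoxb1, in HoxC from Hoxc13 to Hoxc4, and in HoxD from Hoxd13 to Hoxd1. The low coordinates are therefore the head end of HoxA and the tail end of the other clusters.

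The promoters of HoxB and HoxC are shown because no Sin3a peak of either list lay anywhere in those windows, a statement that needs no assignment of peaks to genes. These are the 250 bases before the start of each HoxB or HoxC gene that the promoter table held, taken from RefSeq (GRCm38.p6, plus strand), with CpG dinucleotides in capitals.
Hoxb1: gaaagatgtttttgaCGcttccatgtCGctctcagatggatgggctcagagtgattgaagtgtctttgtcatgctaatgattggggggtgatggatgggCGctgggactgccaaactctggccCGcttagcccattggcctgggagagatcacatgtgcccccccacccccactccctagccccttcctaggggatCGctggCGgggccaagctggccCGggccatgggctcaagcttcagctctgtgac
Hoxb4: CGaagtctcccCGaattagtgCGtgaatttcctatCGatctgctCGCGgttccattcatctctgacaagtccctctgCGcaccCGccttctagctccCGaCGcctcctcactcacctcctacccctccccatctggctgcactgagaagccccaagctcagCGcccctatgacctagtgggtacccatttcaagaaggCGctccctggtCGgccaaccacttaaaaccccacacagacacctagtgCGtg
Hoxb8: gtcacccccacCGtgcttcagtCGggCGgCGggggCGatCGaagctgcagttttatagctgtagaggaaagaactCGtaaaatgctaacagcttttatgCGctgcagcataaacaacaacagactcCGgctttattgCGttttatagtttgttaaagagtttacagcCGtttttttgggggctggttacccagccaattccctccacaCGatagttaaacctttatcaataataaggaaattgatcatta
Hoxc4: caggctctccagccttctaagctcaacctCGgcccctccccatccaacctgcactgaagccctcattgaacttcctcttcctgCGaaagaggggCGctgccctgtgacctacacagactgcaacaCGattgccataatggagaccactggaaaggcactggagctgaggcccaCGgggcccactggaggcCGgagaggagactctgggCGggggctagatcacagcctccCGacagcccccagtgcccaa
They held 7, 14, 12 and 8 CpG dinucleotides in that order. The median was 12.5 over the 24 promoters found for 22 of the 38 Hox genes (range 2 to 35) and 6 over the 32851 promoters of the table. The motif TAATGG, which the Nanog homeodomain is known to prefer in vitro, was searched on both strands, and each match also contains the homeodomain core TAAT. It occurred in 3 of the 24 Hox promoters, those of Hoxc4, Hoxa5 and Hoxa6 (12.5%), against 6.57% of all promoters of the table. TAAT itself occurred in 18 of the 24 (75.0%), against 54.9% of all. Both are descriptions of letters in these stretches.

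HoxA held 34 of the 41 peaks, HoxD held 5, and HoxB and HoxC held 1 each. For Sin3a, HoxA had 6 peaks with the Sin3a line (exact Poisson interval 2.20 to 13.1) and 9 with the combined line (4.12 to 17.1). For FLAG-Nanog it had 7 with the Nanog line (2.81 to 14.4) and 12 with the combined line (6.20 to 21.0). In the Nanog line 4 of 11 FLAG peaks lay in the other clusters. All intervals here are 95% intervals and cover counting error only.

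As background, the autosomes and the X chromosome were divided end to end into stretches as long as each window. At least 6 Sin3a peaks of the Sin3a line lay in 4.94% of the 16483 stretches of 160 kb, and at least 9 of the combined line in 2.29%. At least 7 FLAG peaks of the Nanog line lay in 11.9% of them, and at least 12 of the combined line in 3.18%. At least 34 peaks over the 4 lists lay in 4.16%. HoxA was thus among the fuller stretches in each list, without being extreme, since the fullest held between 34 and 55 peaks of 1 list. Its density was 5.76 and 8.14 times that of the whole Sin3a lists (Sin3a and combined lines), and 3.0 and 5.45 times that of the FLAG lists (Nanog and combined lines).

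**Figure D1:**
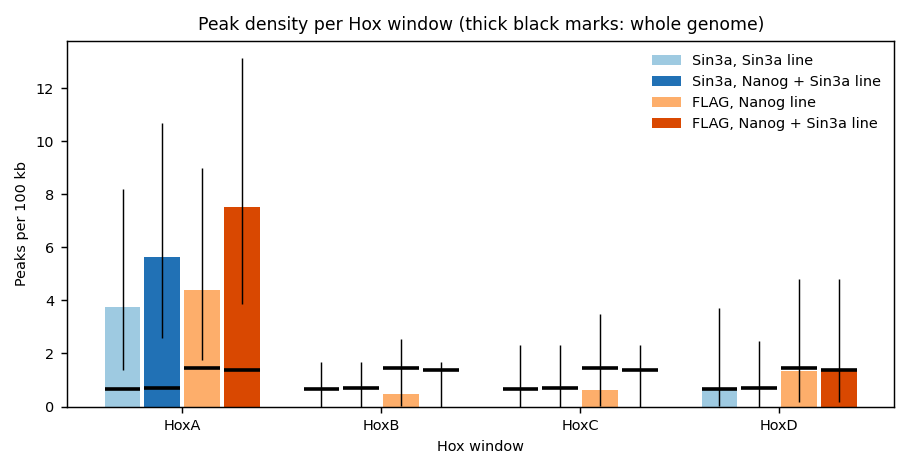
Peaks per 100 kb in each Hox window (bars, 1 per list), with exact Poisson intervals as thin lines and the density of the whole list as thick marks. The HoxA bars run from 3.75 to 7.50, above their marks, and the other windows lie near or below theirs.

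HoxB, HoxC and HoxD held few peaks, and so did much of the genome. HoxB had no Sin3a peak in either line and no FLAG peak in the combined line (0 to 3.69 for each count), and 1 FLAG peak in the Nanog line. Stretches of 220 kb were without a peak in 61.1% and 61.6% of cases in the Sin3a lists (Sin3a and combined lines) and in 41.8% in the FLAG list of the combined line. HoxC showed the same counts as HoxB. For its length the shares without a peak were 66.5%, 66.7% and 47.6%, in the same order. At most 1 peak over the 4 lists lay in 45.5% of stretches as long as HoxB and in 51.3% of those as long as HoxC. Neither Sin3a list had a peak in 59.3% of stretches as long as HoxB and in 64.5% of those as long as HoxC, so the absence of Sin3a from both windows is close to the background and is not a result about them. With FLAG of the Nanog line at least 1 peak lay in 54.6% of stretches as long as HoxB and in 49.1% of those as long as HoxC. HoxD had 1 Sin3a peak in the Sin3a line, where 32.5% of stretches of 150 kb had at least 1, and none in the combined line, where 67.6% had none. It had 2 FLAG peaks in each line, where 35.3% (Nanog line) and 36.6% (combined line) of stretches had at least 2. At most 5 peaks over the 4 lists, the number in HoxD, lay in 68.7%.

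The single peaks of HoxB and HoxC were both FLAG peaks of the Nanog line. That of HoxB lay at chr11:96122895-96123147, with an authors' fold of 4.61 and 33 ChIP fragments over its summit (22.7 to 46.3). The fold is the authors' ratio of ChIP pileup to expected background at the summit, and the fragments are the whole number before the authors' scaling, worked out from that ratio and the −log10 p. That of HoxC lay at chr15:102817942-102818122, with a fold of 3.61 and 28 fragments (18.6 to 40.5). Their −log10 q, the authors' measure of confidence, exceeded that of 48.9% and 23.3% of the list, so neither reached its median.

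HoxD held 1 site of both proteins. At chr2:74553821-74554204 FLAG reached a fold of 5.77 in the Nanog line (38 fragments, 26.9 to 52.2) and 4.19 in the combined line (33, 22.7 to 46.3). Sin3a had a fold of 3.34 there in the Sin3a line (32, 21.9 to 45.2) and no peak in the combined line. The Sin3a peak was among the weaker ones, above 12.7% of its list. The other HoxD peaks were FLAG peaks of 1 line each. One at chr2:74487213-74487450 in the combined line had a fold of 5.25, and one at chr2:74501647-74501935 in the Nanog line a fold of 3.69. All 5 peaks lay in the first 84.2 kb of the 150 kb window, and in gene order the empty remainder is on the side of Hoxd1. The site of both proteins began at 83.8 kb, past the middle of the window. The other peaks began at 17.2 and 31.6 kb, towards Hoxd13.

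**Figure D2:**
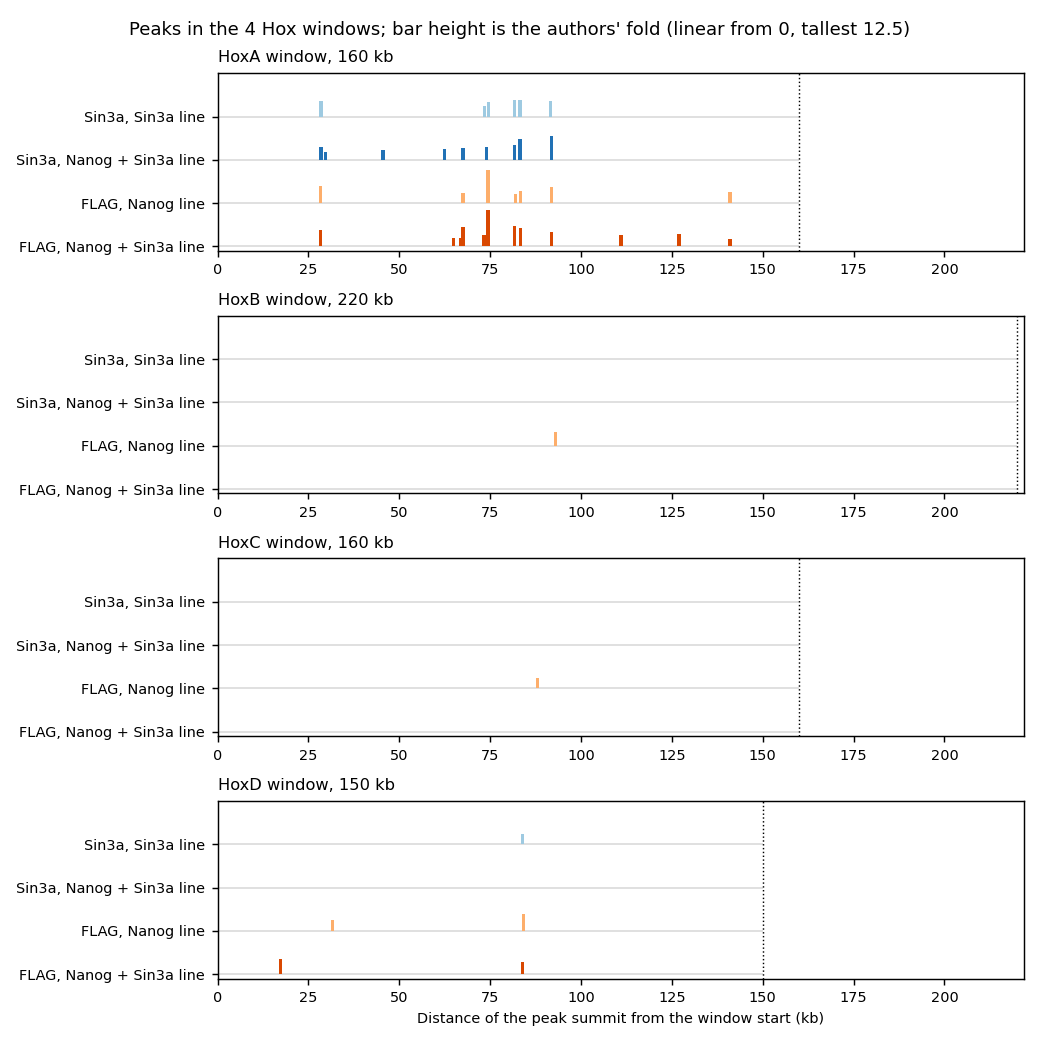
Peaks along each Hox window by distance of the summit from the window start in kb, with 1 row per list. Bar height is the authors' fold, linear from 0 to the tallest at 12.5, and the dotted line is the window end. HoxA holds most bars, and they crowd between 62 and 92 kb.

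The surroundings of HoxB and HoxC held many peaks on one side. In flanks of the same length, HoxB had 37 peaks over the 4 lists directly before the window, 1 inside and 0 directly after it. HoxC had 5 before, 1 inside and 23 after. HoxD had 4, 5 and 8. HoxA had 33 before, 34 inside and 13 after, so only its sum was like that of the flank beyond its head end. By protein the directions differed. Sin3a had 4 and 4 peaks before and 6 and 9 inside (Sin3a and combined lines). FLAG had 10 and 15 before and 7 and 12 inside (Nanog and combined lines). No Sin3a peak lay on chromosome 11 between 95986228 and 96638255, a stretch of 652 kb that contains HoxB. After the single FLAG peak inside HoxB, no peak of any list followed for 515 kb. On chromosome 15 the stretch without Sin3a that contains HoxC measured 420 kb. These stretches were not compared with others, and mappable sequence and gene density were not taken into account.

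**Figure D3:**
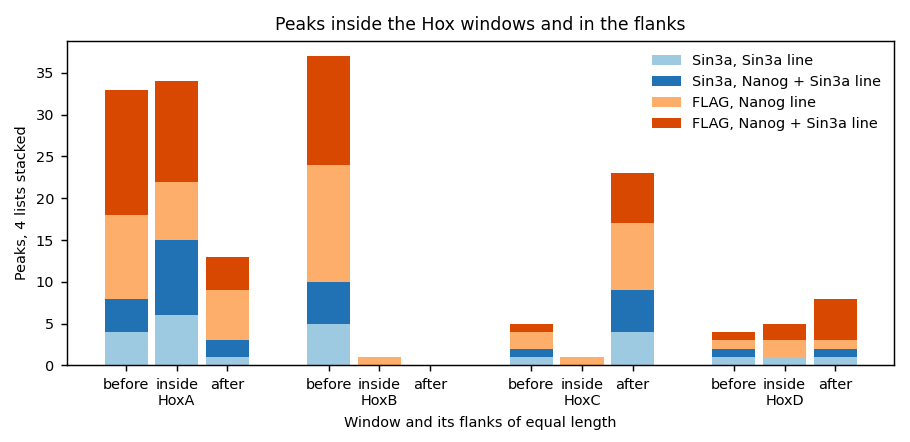
Number of peaks, stacked over the 4 lists, in each Hox window and in flanks of equal length before and after it. HoxB has 37 peaks before, 1 inside and 0 after, whereas HoxA has 33, 34 and 13.

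Within HoxA, the Sin3a peaks lay in the first part of the window. The 15 Sin3a peaks of both lines lay between 28.3 and 92.0 kb from the window start, and the last 68.0 kb held none. Whole stretches of 160 kb lacked Sin3a in both lists in 64.5% of cases. Gaps of 68.0 kb within stretches that hold Sin3a peaks were not counted, so whether this gap is unusual was not tested. In gene order the empty side is that of Hoxa13, whose protein patterns the limb ends. FLAG peaks began at 28.2 kb and reached 141 kb. The first 28.2 kb of the window held no peak of any list. In the last 68.0 kb there were 4 FLAG peaks at 3 sites.

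The 34 HoxA peaks merged into 14 regions, and 5 of these had a peak in every list. Over the 4 clusters 5 of 19 regions (26.3%) had a peak in every list, against 25.7% of the 45707 regions of the genome. Among peaks with a −log10 q of at least 10, 2 of 8 regions did, and the share of the genome at that threshold was not computed. The regions of all 4 lists lay at 28.2, 73.2, 81.4, 82.7 and 91.6 kb, so 4 of them fell within 20 kb.

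The strongest was chr6:52153248-52154916, at 73.2 kb and 1669 bp wide. FLAG reached a fold of 11.2 in the Nanog line (82 fragments, 65.2 to 102) and 12.5 in the combined line (104, 85.0 to 126). These peaks were stronger than 95.4% and 96.9% of their lists. Sin3a was of middling strength at the same place, with a fold of 4.94 (48 fragments) in the Sin3a line and 4.27 in the combined line (54 fragments), above 54.3% and 59.8% of the lists. The Sin3a peak of the combined line was 1493 bp wide, the widest member. This region also held a second, weaker peak for Sin3a in the Sin3a line (fold 3.59) and for FLAG in the combined line (fold 3.79).

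The strongest Sin3a peak of the clusters lay at chr6:52171576-52172031, at 91.6 kb. Its fold was 7.95 in the combined line (61 fragments, 46.7 to 78.4), above 88.1% of the list, and 5.18 in the Sin3a line (46 fragments, 33.7 to 61.4), above 54.9%. FLAG had folds of 5.34 and 5.01 there (Nanog and combined lines), above 56% and 55.9% of the lists. In this region Sin3a ranked higher in its list than FLAG in the combined line, and about level with it across the single-transgene lines.

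A pair of neighbouring regions lay at chr6:52161439-52162141 and chr6:52162728-52163808. In the first, Sin3a had folds of 5.50 (Sin3a line) and 5.14 (combined line), and FLAG had 2.99 (Nanog line) and 6.82 in the combined line. The FLAG peak was thus above 3.17% of one list and 77.4% of the other, with 23 fragments (14.6 to 34.5) and 56 (42.3 to 72.7) before scaling. In the second, Sin3a had folds of 5.62 and 7.06, and FLAG 4.14 and 6.39, in the same order of lines. In both regions the peaks of both proteins ranked higher in the lists of the combined line. For Sin3a the shares of the list below were 63.4% (Sin3a line) and 69.1% (combined line) in the first region, and 61.7% and 81.0% in the second.

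The remaining region of all 4 lists, chr6:52108188-52108668, had folds of 5.40 and 4.50 for Sin3a (Sin3a and combined lines), and 5.67 and 5.63 for FLAG (Nanog and combined lines). A further region, chr6:52147252-52147639, had a peak in every list but that of the Sin3a line. Its FLAG fold was 3.49 in the Nanog line (31 fragments, 21.1 to 44.0) and 6.71 in the combined line (72, 56.3 to 90.7), above 22.6% and 84.3% of the lists. The scaling of the pileups, worked out from the deposited values, was 0.868 (Nanog line) and 0.731 (combined line), so fragment numbers are not directly comparable. Sin3a had a fold of 4.08 there in the combined line.

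**Figure D4:**
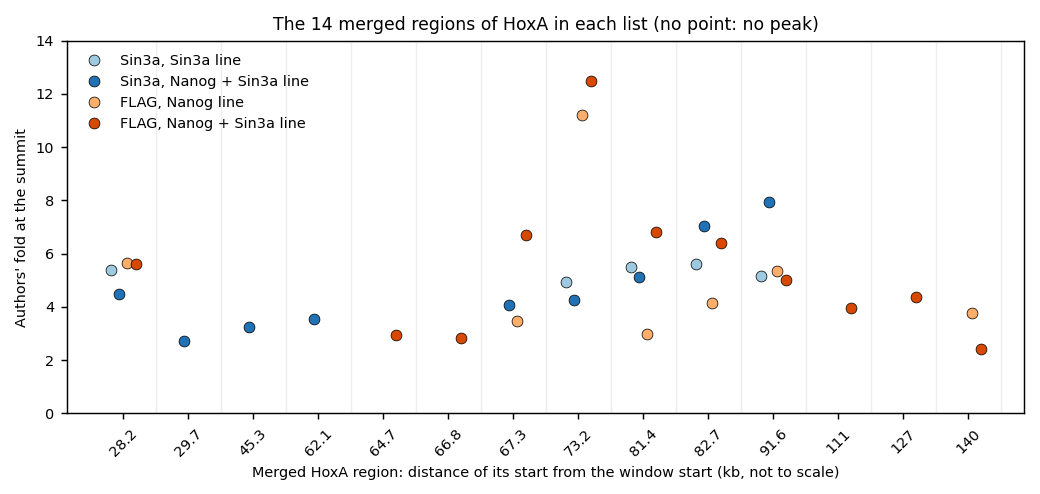
Authors' fold at the summit for the 14 merged regions of HoxA, in order along the window, with 1 colour per list and no point where a list has no peak. FLAG at 73.2 kb reaches 11.2 and 12.5, and the other points lie between 2.44 and 7.95.

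Outside these 6 regions the HoxA peaks were weak, and most were found in 1 list. Sin3a of the combined line alone was found at chr6:52109686-52109918 (fold 2.73), chr6:52125349-52125685 (3.23) and chr6:52142077-52142508 (3.56). FLAG of the combined line alone was found at chr6:52144691-52145004 (2.96), chr6:52146834-52147041 (2.83), chr6:52190557-52190795 (3.98) and chr6:52207051-52207320 (4.36). The highest −log10 q among these 7 was 7.51, above 37.9% of its list. The last region, chr6:52220492-52220829, had FLAG peaks in both lines, with folds of 3.78 (Nanog line) and 2.44 (combined line).

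Members were compared with their lists in strength. The median fold of Sin3a in HoxA was 5.29 (Sin3a line) and 4.27 (combined line), against 4.72 and 4.63 for the lists. That of FLAG was 4.14 (Nanog line) and 4.68 (combined line), against 4.75 and 4.74. By −log10 q, 5 of 6, 4 of 9, 3 of 7 and 6 of 12 peaks lay above the list's median, in that order. Peaks covered 2.10% and 3.29% of HoxA for Sin3a and 1.82% and 3.33% for FLAG, in the same order, against 0.399 and 0.409%, and 0.671 and 0.607%, of the genome.

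Whether Sin3a and Nanog lay at the same places in the clusters was asked within the combined line and across the single-transgene lines. Of 9 Sin3a peaks in the combined line, 6 overlapped a FLAG peak by at least 1 base (66.7%, Wilson interval 35.4 to 87.9%), against 80.3% of the whole list. Across the single-transgene lines 6 of 7 did (85.7%, 48.7 to 97.4%), against 88.5%. Of the FLAG peaks, 7 of 14 overlapped Sin3a in the combined line (50%, 26.8 to 73.2%), against 42.2%, and 6 of 11 did across the single-transgene lines (54.5%, 28.0 to 78.7%), against 41.8%. Each interval includes the share of the whole list, so at this number of peaks no difference from the rest of the genome was detectable. By merged regions, 7 of 19 had both proteins (36.8%), 9 had FLAG only (47.4%) and 3 had Sin3a only (15.8%), against 37.2, 57.5 and 5.27% of the genome. The 3 regions with Sin3a only all belonged to HoxA and to the combined line, and their −log10 q was at most 4.92. At a −log10 q of at least 5, all 6 remaining Sin3a peaks of the combined line overlapped FLAG (100%, 61.0 to 100%), against 77.9% of the list, and 4 of 5 did across the single-transgene lines (80%), against 87.5%. With equal numbers of top peaks in all 4 lists, 85.7% (combined line) and 100% (single-transgene lines) of the FLAG peaks overlapped Sin3a, against 52.0% and 60.4% of the lists. In that setting 85.7% and 57.1% of the Sin3a peaks overlapped FLAG, against 53.6% and 61.7%. With summits within 200 bp as the overlap, the shares in the combined line were 44.4% for Sin3a and 28.6% for FLAG, against 61.2% and 30.8%. These settings leave 4 to 14 peaks, and the direction against the lists changed between them. The precipitations were separate, so binding to the same molecules was not shown.

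Distances between summits of Sin3a and FLAG were taken where peaks overlapped one to one. In the combined line, 5 Sin3a peaks of HoxA did so, at 20 to 246 bp with a median of 102 bp, against 82 bp over the whole lists. Across the single-transgene lines 6 pairs, of which 1 in HoxD, had a median of 84.0 bp (50 to 192 bp), against 75 bp. The sixth overlapping Sin3a peak of the combined line, at chr6:52153248-52154916, overlapped both FLAG peaks there, with summits 389 and 667 bp away, and is left out of these medians. Among the one-to-one pairs of the combined line, the closest was at chr6:52147252-52147639 and the widest at chr6:52162728-52163808. The latter measured 192 bp across the single-transgene lines. Between lines, summits of 1 protein had medians of 61.0 bp for Sin3a (4 pairs, 24 to 68 bp) and 57.0 bp for FLAG (8 pairs, 7 to 114 bp).

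The lines were compared for each protein. Every HoxA peak of the single-transgene lines was found again in the combined line. This held for 6 of 6 Sin3a peaks (61.0 to 100%) and 7 of 7 FLAG peaks (64.6 to 100%), against 84.2% and 74.2% over the whole lists. In the other direction 5 of 9 Sin3a peaks (55.6%, 26.7 to 81.1%) and 7 of 12 FLAG peaks (58.3%, 32.0 to 80.7%) of the combined line had a counterpart, against 80.4% and 79.7%. Both intervals include the share of the whole list by a small margin. Over all 4 clusters the FLAG share was 8 of 14 (57.1%, 32.6 to 78.6%), whose interval ends below 79.7%. For Sin3a the share moved to 83.3% among peaks with a −log10 q of at least 5 and to 100% at 10. The whole Sin3a list gave 82.8% and 84.6%, so the Sin3a share was then no longer below the list. The FLAG share over all 4 clusters stayed below its list at both thresholds. It was 54.5% at 5 and 42.9% at 10 (15.8 to 75.0%), the latter against 79.2%. With equal numbers of top peaks in all 4 lists, 71.4% of Sin3a and 42.9% of FLAG peaks had a counterpart, against 82.7% and 76.9%. By regions, 7 of the 14 in HoxA were found in the combined line only and 0 in the single-transgene lines only. Over the genome these classes made up 16.9% and 18.4%. Among peaks with a −log10 q of at least 5, the regions of the combined line only numbered 3 of 13 over the 4 clusters, against 8 of 19 without that threshold. The share of the genome at that threshold was not computed. In HoxB, HoxC and HoxD together, 1 region was found in the combined line only and 3 in the Nanog line only.

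The number of HoxA peaks in the combined line, divided by that of the single-transgene line, was 1.5 for Sin3a (exact interval 0.477 to 5.12) and 1.71 for FLAG (0.622 to 5.14). The whole lists gave 1.06 and 0.943, which both intervals include. Among peaks with a −log10 q of at least 10 the Sin3a ratio was 0.8, so its direction turned, and the FLAG ratio was 2.0. HoxA lies in a segment of chromosome 6, from 50 to 56 Mb, where both lists of the combined line held more peaks. The segment was chosen after its counts were seen. Without HoxA, it had 37 Sin3a peaks (Sin3a line) and 75 (combined line), a ratio of 2.03 (1.35 to 3.09). It had 88 and 184 FLAG peaks, a ratio of 2.09 (1.61 to 2.73). The rest of chromosome 6 gave 1.21 for Sin3a and 0.927 for FLAG. The flanks directly beside HoxA, each as long as the window, gave 1.20 for Sin3a (0.305 to 4.97) and 1.19 for FLAG (0.578 to 2.47). These intervals include both the ratios of the segment and those of the whole lists. How far the segment bears on the HoxA counts was not tested. In HoxB, HoxC and HoxD, which lie on other chromosomes, there were 1 and 0 Sin3a peaks and 4 and 2 FLAG peaks, in the single-transgene and combined lines.

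**Figure D5:**
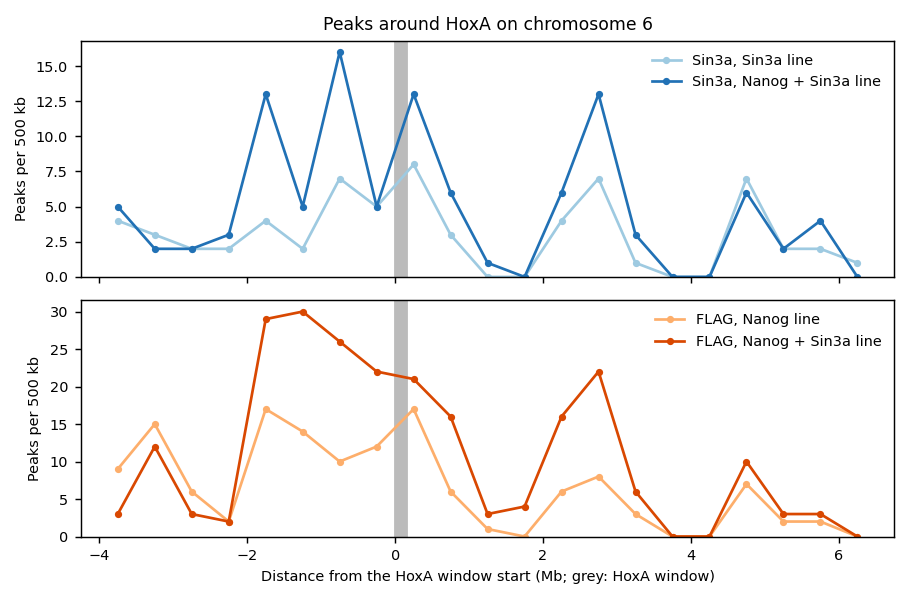
Peaks per 500 kb on chromosome 6 by distance in Mb from the start of the HoxA window (grey band), for Sin3a (top) and FLAG (bottom), with points at bin centres. In the bin that begins at HoxA the Nanog + Sin3a line has 13 Sin3a and 21 FLAG peaks, against 8 and 17 in the single-transgene lines, and the lists of the Nanog + Sin3a line are also higher in most of the neighbouring bins.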

How the data were processed

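ChIP-seq was run on 10 samples: 1 input, 1 IgG and 8 ChIP samples, of which the first 2 were not analysed here. Per the submitters' processing notes, build mm9, FastQC 0.10.1, Bowtie 1.0.0 and SAMtools 0.1.19 were used, with no role stated. The peak caller is unnamed and any pooling of replicates unstated in these sources. The deposited score equals 10 times the −log10 q without decimals in 100% of rows. The deposited fold is a ratio, the scaled ChIP pileup plus 1 over the expected background plus 1, as the values show. The deposited −log10 p and −log10 q of each summit are the authors' own. The score was not used further. Fold and −log10 q are printed side by side across lists, although comparable only within a list. To rank regions, −log10 q was averaged over lists in spite of this.

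Fragments over a summit were recovered where exactly 1 whole number (tolerance 0.01) met fold and p-value: in 98.9 to 99.9% of each list and for all 41 members. Their list medians were 34 to 46. No total of reads was at hand. Overlap means at least 1 shared base. Chromosome lengths of mm9 came from GenomeInfoDb 1.38.1. Regions are peaks of all lists joined where they share a base. Regions were named by rank of mean −log10 q, by width and by list combination. This rule named 16 of the 19, and the other 3 were added so that every member is accounted for. The windows, members and comparisons were chosen with earlier results of these data known. Alternatives were other overlaps, thresholds, list sizes, window ends and merging. Versions were SciPy 1.17.1, pandas 2.3.3, NumPy 2.4.6, Matplotlib 3.10.9 and Python 3.11.15. The code was tested on simulated data.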

Additional observations from a re-analysis of the deposited data

How the results depend on the processing

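No paired analysis was possible because the deposited lists give no value for a single replicate. Leaving out a replicate was likewise not run. With so few peaks, stricter thresholds leave only some of them by construction, and further causes were not tested. Of the recomputed values, 147 stayed within their interval, or within 1.5 times for counts and covered length, and 20 did not. The 147 include 32 of peak strength and width and 6 of summit distance, where 0 moved. For summit distances the interval was the range of the same pairs, and for medians of 6 or 7 peaks the range of those peaks. The median of a subset cannot leave such a range, so staying within it shows nothing where a setting only removes peaks or pairs. Lengthened windows, nearest summits and, for summit distances, thresholds can also add some, so those values were not fixed in this way. At a −log10 q of at least 10, HoxA held 4 Sin3a peaks in the combined line, 3 FLAG peaks (Nanog line) and 6 (combined line). HoxB, HoxC and HoxD together then held 0 Sin3a peaks in the Sin3a line (0 also at 5) and 1 FLAG peak in each FLAG list. FLAG of the Nanog line then covered 0.967% of HoxA. Regions numbered 8, of which 2 had all 4 lists and 2 were of the combined line only (3 of 13 at a −log10 q of at least 5). The shares of the genome at these thresholds were not computed. Sin3a peaks of the combined line lay at FLAG peaks in 100% of cases at 5 and at 10 (77.9% and 68.0% of the whole list), and those of the single-transgene lines in 80% and 60.0% (87.5% and 79.7%). Sin3a peaks of the combined line were found in the Sin3a line in 83.3% and 100%, against 82.8% and 84.6% of the whole list. Those of the Sin3a line were found in the combined line in 100% at 5 (5 of 5, 56.6 to 100%), against 83.3%. At 10 this held for 4 of 5 (37.6 to 96.4%), against 82.1%. With equal numbers of top peaks in all 4 lists, FLAG peaks lay at Sin3a in 85.7% of cases in the combined line and 100% across the single-transgene lines, and Sin3a peaks at FLAG in 85.7% and 57.1%. With windows shortened by 20 kb at both ends, HoxB, HoxC and HoxD held 1 FLAG peak of the combined line. The ratio of HoxA peak counts between lines ranged from 0.8 to 1.67 for Sin3a and from 1.5 to 2.0 for FLAG.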
